A study of Mus musculus with 4 samples.

Results

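The VEGF family comprises 5 ligand genes (Vegfa, Vegfb, Vegfc, Vegfd and Pgf), 3 receptor tyrosine kinase genes (Flt1, Kdr and Flt4) and 2 neuropilin genes (Nrp1 and Nrp2). These 10 genes were chosen by name, and all 10 were found among the 56691 genes of the deposited table. RNA-seq had been performed on 4 sarcomas of W/+ mice, which carry 1 mutant p53 allele (labelled p53R282W/+, by the human residue) beside a wild-type allele in the germline. The study does not state whether the sarcomas kept the wild-type allele. ATO 1 and ATO 2 came from mice given ATO (arsenic trioxide, described in the study as a compound that rescues mutant p53) in their drinking water from early adulthood until death. PBS 1 and PBS 2 came from mice whose labels name PBS as the treatment, and which the study describes as untreated. The comparison addresses how the transcriptome of such sarcomas differs with ATO treatment. The study names C57BL/6N as the strain of its W/+ mice, and the labels give neither strain, sex nor age at sampling.

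The study describes angiosarcomas, soft tissue sarcomas and osteosarcomas in these mice, and the labels do not say which type each sample is. Tumor type and treatment therefore cannot be told apart. The labels do not say that the 4 sarcomas came from separate mice, and p-values measure only the spread between these samples. The labels also attach a growth protocol for cultured cells to all 4 samples, whereas their tissue entry is sarcoma tumor.

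VEGF ligands are secreted dimers that bind receptor tyrosine kinases on endothelial cells. VEGF-A acts mainly through VEGFR2, encoded by Kdr, in the growth of blood vessels, while VEGF-C and VEGF-D act mainly through VEGFR3, encoded by Flt4, in the growth of lymphatic vessels. VEGF-B and PlGF, the product of Pgf, bind VEGFR1, encoded by Flt1, which binds VEGF-A tightly but signals weakly. Neuropilins are co-receptors that bind both VEGF ligands and class 3 semaphorins.

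The total count was 18134000 in ATO 1, 15259695 in ATO 2, 17465090 in PBS 1 and 17971675 in PBS 2. Levels are given as TMM-normalised FPKM, the deposited FPKM (reads scaled to exon length and to the total count) divided by the TMM factor of the sarcoma. Counts of the 10 genes ranged from 71 to 14528, so that counting error was at most 11.9% of a value and the spread between sarcomas was the larger source of error. Between the sarcomas of a group, the biological coefficient of variation of edgeR was 62.5%. Fold changes are ATO against PBS on the log2 scale, from edgeR's quasi-likelihood test with Benjamini-Hochberg adjustment over 17188 genes. With 2 sarcomas against 2, an exact permutation test cannot reach a p below 0.33.

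The sarcomas stood apart in their content of other tissues, and PBS 2 stood apart in blood vessel genes. The 14 endothelial markers summed to 199.6 TMM-normalised FPKM in ATO 1, 428.9 in ATO 2, 226.4 in PBS 1 and 1748 in PBS 2. Of these 14 markers, 13 were highest in PBS 2 (23.7% of all genes), and the exception was Sox17, with 2.93, 4.79, 1.85 and 0.979 in the same order. Cdh5, which encodes VE-cadherin of endothelial junctions, had 24.5, 76.4, 48.7 and 335.7 TMM-normalised FPKM in ATO 1, ATO 2, PBS 1 and PBS 2 (the order used for all levels that follow) and was the most abundant of the markers in all but ATO 1. The 6 lymphatic endothelial markers summed to 28.0, 201.6, 75.5 and 509.6, with the chemokine gene Ccl21a first in ATO 1 and PBS 2, and Pdpn in ATO 2 and PBS 1. The 7 pericyte markers summed to 110.7, 126.8, 146.9 and 362.5, with Rgs5 first in ATO 2 and PBS 2, and Pdgfrb in ATO 1 and PBS 1. Pdgfrb, the PDGF receptor of mural cells, had 35.9, 28.9, 90.3 and 63.9, a log2 fold change of -1.25. None of these 27 vessel markers had a count of 0 in any sarcoma. In such bulk samples, fewer cells of a type and less RNA per cell cannot be told apart.

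None of the 10 genes passed an adjusted p of 0.05 in edgeR, and the share of all genes tested that passed was 0%. At an unadjusted p under 0.05 there was 1 gene, Vegfd, against 8.51% of all genes. In DESeq2 the same gene passed the adjusted threshold, as did 4.17% of all genes. At the unadjusted p, DESeq2 gave 2 of the 10 genes (2157 of 17188 over all genes). Without a filter, edgeR gave 6 (2992 of 30859). DESeq2 size factors, the replicate block and the limma fits each gave 1. The fitted level was higher in ATO for 4 of the 10 genes and lower for 6, and 49.2% of all genes were higher. Without PBS 2, 7 were higher and 3 lower, beside 55.3% of all genes higher. The median log2 fold change was -0.73 over the 10 genes and -0.02 over all genes. Without PBS 2 it turned to 0.51 over the 10 genes, beside 0.15 over all genes tested without that sarcoma. In TMM-normalised FPKM, both ATO sarcomas lay above both PBS sarcomas for 2 genes (Vegfd and Nrp2; 19.7% of all genes) and below for 2 (Vegfc and Nrp1; 20.2% of all genes). Both counts are close to those shares. On the deposited FPKM, without the TMM factor, Nrp2 overlapped and the counts were 1 above (12.8% of all genes) and 2 below (29.6% of all genes). PBS 2 held the highest level for 6 of the 10 genes, against 23.7% of all genes. For 4 of them (Pgf, Flt1, Kdr and Flt4) the level in PBS 2 was at least 3 times that of the next sarcoma, which held for 2.19% of all genes. This rule was set after the values were seen.

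**Figure D1:**
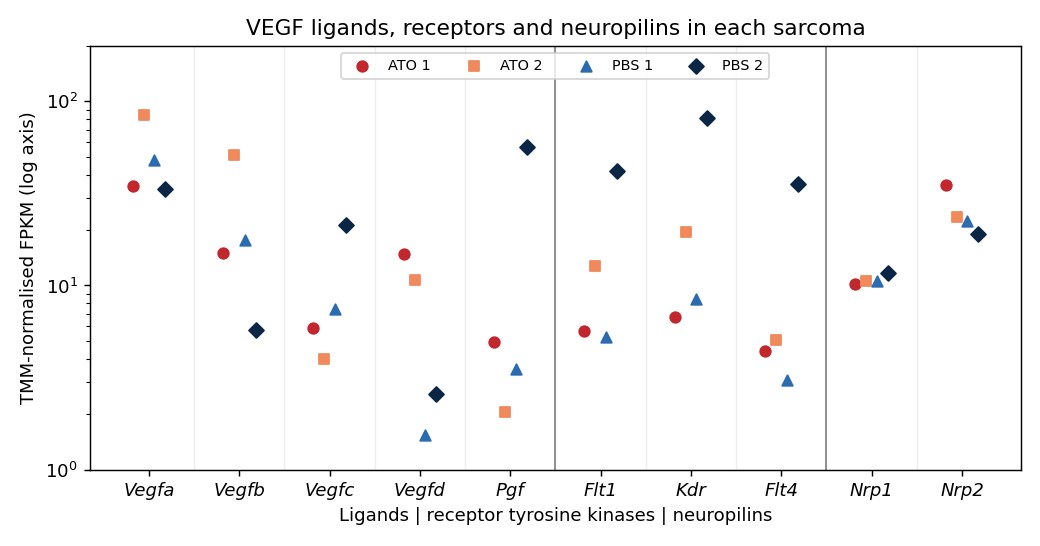
TMM-normalised FPKM (log axis) of the 10 VEGF family genes, with 1 point for each sarcoma and no group mean, since each group has 2 sarcomas. PBS 2 lies apart at the top for Pgf, Flt1, Kdr and Flt4, the ATO sarcomas lie above the PBS sarcomas for Vegfd, and the points for Nrp1 lie close together.

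Vegfd, a ligand of VEGFR3 in lymphatic vessel growth, had the smallest p of the 10 genes. Its level was 14.8 TMM-normalised FPKM in ATO 1, 10.6 in ATO 2, 1.55 in PBS 1 and 2.59 in PBS 2. Both ATO sarcomas lay above both PBS sarcomas, with means of 12.7 ± 2.97 and 2.07 ± 0.736 (SD, n = 2). The log2 fold change was 2.62 (adjusted p 0.570 by edgeR, SE 0.54, unadjusted p 0.00532). It was 3.04 without PBS 2, and between 2.30 and 3.04 with each sarcoma left out in turn. The adjusted p was 0.00238 in DESeq2, and over all alternatives it ranged from 0.00238 to 0.872. The underlying counts were 653, 321, 71 and 124. The gene (ENSMUSG00000031380) lies on the plus strand at chrX:164373378-164402650 (GRCm38).

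Markers of muscle and fat moved with the same groups. The 8 skeletal muscle markers summed to 13848, 1226, 6.27 and 111.2 TMM-normalised FPKM, led by Acta1 (skeletal muscle actin) in all but PBS 1, and all 8 lay above in ATO (19.7% of all genes). The log2 fold changes of Myh4, Ckm, Tnni2 and Tnnt3 were 7.67, 7.42, 7.16 and 7.11. Without ATO 1 they were 3.85, 4.94, 4.56 and 4.26, and without PBS 2 those of Myh4 and Ckm were 13.5 and 12.8. The 5 adipocyte markers summed to 204.8, 1258, 0.161 and 0.492, led by Cfd (adipsin) in all but PBS 1, and all 5 lay above in ATO. Of the adipocyte markers, Plin1 had a count of 0 in PBS 1 and Lep a count of 0 in both PBS sarcomas. Vegfd was higher in ATO 1 than in ATO 2, as were the muscle markers, whereas the adipocyte markers were higher in ATO 2. The part of either tissue in the level of Vegfd was not tested.

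Vegfc encodes the other ligand of VEGFR3, and its groups lay the other way round. It had 5.90, 4.01, 7.45 and 21.4 TMM-normalised FPKM. Both ATO sarcomas lay below both PBS sarcomas, although PBS 1 was close to ATO 1. The log2 fold change was -1.54 (adjusted p 0.599 by edgeR, SE 0.66), and -0.59 without PBS 2. The ratio of Vegfc to Vegfd, taken within each sarcoma and so free of the scaling between sarcomas, was 0.398 in ATO 1 and 0.377 in ATO 2 but 4.82 in PBS 1 and 8.28 in PBS 2. Vegfd was thus the more abundant of the pair per length in both ATO sarcomas, and Vegfc in both PBS sarcomas. This ratio was singled out after its values were seen. Vegfc (ENSMUSG00000031520) lies at chr8:54077606-54187096 on the plus strand.

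Pro-VEGF-C is cleaved by the protease ADAMTS3 with the help of the secreted protein CCBE1. Adamts3 had 0.121, 0.0588, 1.49 and 0.277 TMM-normalised FPKM, lower in both ATO sarcomas on counts of 12 and 4 there. Ccbe1 had 1.92, 2.88, 12.4 and 0.881, highest in PBS 1 and with overlapping groups. Both genes belong to the list of modulators described further on and were singled out after their values were seen.

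Vegfa, the main ligand of blood vessel growth, had 34.7, 84.6, 48.1 and 33.3 TMM-normalised FPKM. It was highest in ATO 2 and overlapped between the groups, and its highest level was 2.54 times its lowest. The log2 fold change of 0.55 (adjusted p 0.825 by edgeR, SE 0.61) turned to -0.22 without ATO 2 and was 1.04 without ATO 1. Vegfa (ENSMUSG00000023951; chr17:46016993-46032369, minus strand) was the most abundant ligand per length in 3 sarcomas, with 46.0% of the ligand sum in ATO 1, 55.4% in ATO 2 and 61.4% in PBS 1. In PBS 2 its share was 27.8%.

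Vegfb, a VEGFR1 ligand abundant in heart, muscle and brown fat, had 15.0, 51.4, 17.7 and 5.73 TMM-normalised FPKM. It was highest in ATO 2 and lowest in PBS 2, so that its order ran against that of the receptors in PBS 2. The log2 fold change was 1.50 (adjusted p 0.673 by edgeR, SE 0.86). It was 0.36 without ATO 2, 0.90 without PBS 2 and 2.53 without PBS 1. ATO 2 also stood apart in its mitochondrial transcripts, which took 14.7% of its counts against 1.98% to 2.59% in the others. The gene (ENSMUSG00000024962) lies at chr19:6982473-6987651.

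Pgf, which encodes placental growth factor and which the study counts among p53 target genes, was the member most dominated by a single sarcoma. It had 4.94, 2.06, 3.50 and 56.8 TMM-normalised FPKM, from counts of 262, 75, 194 and 3282. PBS 2 was 11.5 times the next sarcoma, while PBS 1 lay between the ATO sarcomas. The log2 fold change was -3.10 (adjusted p 0.604 by edgeR, SE 1.39) with PBS 2 and -0.0045 without it. Pgf made up 47.4% of the ligand sum in PBS 2, against 6.55% in ATO 1, 1.35% in ATO 2 and 4.47% in PBS 1. The ratio of Vegfa to Pgf was 7.03, 41.0 and 13.7 in ATO 1, ATO 2 and PBS 1, and 0.586 in PBS 2. Pgf (ENSMUSG00000004791) lies at chr12:85166635-85177790 on the minus strand.

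The 3 receptor genes had the same order of sarcomas at the top, with PBS 2 first and ATO 2 second, except that on the deposited FPKM ATO 1 (4.45) was above ATO 2 (4.12) for Flt4. Kdr, the main signalling receptor for VEGF-A, had 6.74, 19.5, 8.40 and 80.8 TMM-normalised FPKM. PBS 2 was 4.14 times the next sarcoma, and the other 3 overlapped between the groups. Its log2 fold change was -1.77 (adjusted p 0.712 by edgeR, SE 1.21) and turned to 0.64 without PBS 2. Flt1 had 5.68, 12.7, 5.22 and 41.9, with PBS 2 at 3.30 times the next sarcoma. Its log2 fold change of -1.36 (adjusted p 0.754 by edgeR, SE 1.08) turned to 0.81 without PBS 2. The lymphatic receptor gene Flt4 had 4.42, 5.03, 3.06 and 35.7, with PBS 2 at 7.10 times the next sarcoma. Its log2 fold change of -2.04 (adjusted p 0.667 by edgeR, SE 1.15) turned to 0.62 without PBS 2. The direction of all 3 receptors thus rested on 1 PBS sarcoma.

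The receptors summed to 16.8, 37.2, 16.7 and 158.4 TMM-normalised FPKM, while the 5 ligands summed to 75.5, 152.7, 78.3 and 119.8. Ligand transcripts exceeded receptor transcripts per length in ATO 1, ATO 2 and PBS 1, and the order was the opposite in PBS 2. The ratio of Vegfa to Kdr was 5.15, 4.34 and 5.72 in the first 3 sarcomas and 0.412 in PBS 2. Of the receptor sum, Kdr made up 40.0%, 52.4%, 50.3% and 51.0%, Flt1 33.8%, 34.1%, 31.3% and 26.5%, and Flt4 26.2%, 13.5%, 18.4% and 22.5%. Flt1 (ENSMUSG00000029648; chr5:147561604-147726011) and Kdr (ENSMUSG00000062960; chr5:75932827-75978458) lie on the minus strand of the same chromosome, and Flt4 (ENSMUSG00000020357) at chr11:49609263-49652739 on the plus strand. Counts per gene do not separate the soluble form of VEGFR1 from the full-length receptor, nor the splice forms of Vegfa.

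Set against the endothelial markers of the same sarcoma, the receptors varied far less than their levels. This measure is log2(TMM-normalised FPKM + 0.1) of a gene minus the mean of the same over the 14 endothelial markers, a list that holds none of the receptors. For Flt1 it was -0.99, -0.83, -1.12 and -0.68, a range of 0.44 where the log2 level itself had a range of 2.98. For Kdr it was -0.74, -0.22, -0.45 and 0.26, a range of 1.01 against 3.56. Flt4 had -1.34, -2.16, -1.87 and -0.92, a range of 1.24 against 3.50. The mean difference of ATO from PBS in this measure was -0.01 for Flt1, with SDs of 0.11 in ATO and 0.31 in PBS (n = 2). For Kdr the difference was -0.39 (SDs 0.37 and 0.50) and for Flt4 -0.35 (SDs 0.58 and 0.68), each smaller than the SD within PBS.

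Pgf kept more of its spread, with -1.18, -3.40, -1.69 and -0.25, a range of 3.15 against 4.72 for its log2 level. Its highest value was again in PBS 2. The subtracted mean of the endothelial markers itself had a range of 2.56 and was highest in PBS 2. A gene with an even level therefore spreads in this measure by the subtraction alone. For 5 genes the range was larger in this measure than in the log2 level. It was 2.40 against 0.20 for Nrp1, 3.45 against 0.89 for Nrp2 and 3.07 against 1.34 for Vegfa. For Vegfb it was 4.71 against 3.14, and for Vegfd 5.04 against 3.18. Vegfd had 0.38 and -1.09 in ATO and -2.82 and -4.65 in PBS, so that its groups did not overlap on this scale either. The part of endothelial content in any of these differences was not tested.

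**Figure D2:**
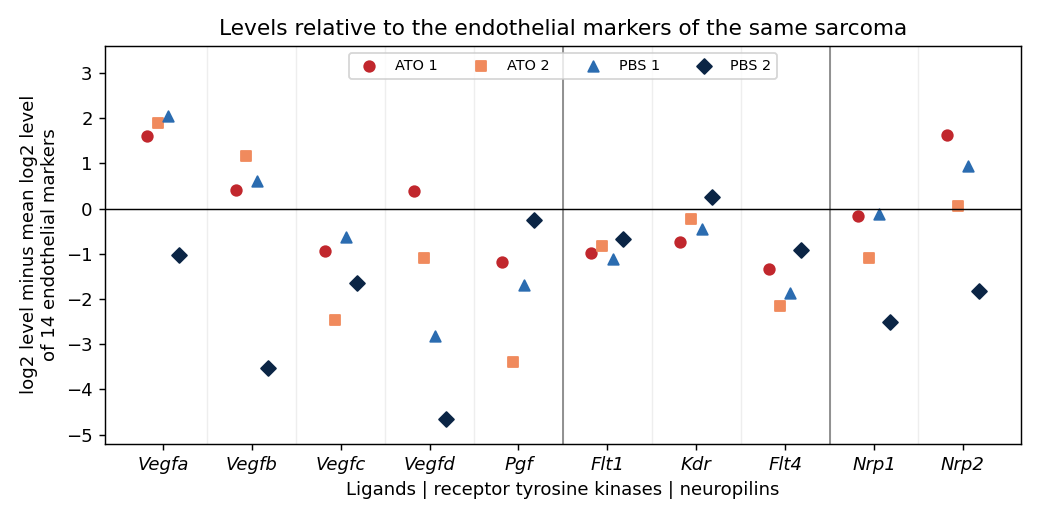
Level of each VEGF family gene relative to the endothelial markers of the same sarcoma, as log2(TMM-normalised FPKM + 0.1) minus the mean of the same over 14 endothelial markers, with 1 point for each sarcoma. Flt1 spans 0.44, Kdr 1.01 and Flt4 1.24 log2 units. Vegfa, Vegfb, Vegfd, Nrp1 and Nrp2 have their lowest point in PBS 2, where the subtracted mean is highest.

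Nrp1, a co-receptor of VEGF-A and of class 3 semaphorins, was the steadiest of the 10 genes. It had 10.1, 10.5, 10.6 and 11.7 TMM-normalised FPKM, and its highest level was 1.15 times its lowest. Both ATO sarcomas lay below both PBS sarcomas, but the nearest values of the groups differed by less than the SD of 0.756 within PBS. The log2 fold change was -0.11 (adjusted p 0.950 by edgeR, SE 0.36), between -0.18 and -0.04 with each sarcoma left out. Nrp2, a co-receptor of VEGF-C, had 35.3, 23.5, 22.3 and 19.0, a log2 fold change of 0.51 (adjusted p 0.796 by edgeR, SE 0.48). It was 0.17 without ATO 1 and 0.78 without ATO 2. ATO 2 and PBS 1 were close, and their order was reversed on the deposited FPKM. Nrp2 was more abundant per length than Nrp1 in every sarcoma. Nrp1 (ENSMUSG00000025810) lies at chr8:128358604-128503363 and Nrp2 (ENSMUSG00000025969) at chr1:62703285-62818695, both on the plus strand. A microRNA gene, Mir1903, shares 80 exonic bases with Nrp1 in the annotation and had a count of 0 in all 4 sarcomas, and no other annotated gene shared exonic bases with a member.

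By mean TMM-normalised FPKM, the order in ATO was Vegfa, Vegfb, Nrp2, Kdr, Vegfd, Nrp1, Flt1, Vegfc, Flt4 and Pgf, from 59.7 to 3.50. In PBS it was Kdr, Vegfa, Pgf, Flt1, Nrp2, Flt4, Vegfc, Vegfb, Nrp1 and Vegfd, from 44.6 to 2.07. Of the 9 neighbouring pairs in each order, 1 differed by more than the larger of its SDs (Nrp2 above Kdr in ATO, and Nrp1 above Vegfd in PBS). The other neighbours did not differ beyond their spread.

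The class 3 semaphorins and plexins, ligands and signalling partners of the neuropilins, had 11 of 12 genes tested and Sema3e below the count filter. In edgeR 0 passed, 3 were higher and 8 lower in ATO, 0 lay above and 2 below (19.7% and 20.2% of all genes), and the median log2 fold change was -0.15, or 0.06 without PBS 2. Sema3a, a repulsive guidance ligand that binds Nrp1, had 1.79, 1.08, 12.2 and 7.50 TMM-normalised FPKM. Both ATO sarcomas lay well below both PBS sarcomas, in contrast to the near-equal levels of Nrp1. Its log2 fold change was -2.77 (adjusted p 0.570 by edgeR, SE 0.51), between -3.20 and -2.38 with each sarcoma left out. The adjusted p was 0.00134 in DESeq2 and ranged up to 0.872 over the alternatives. Plxnd1, the receptor of Sema3e on endothelial cells, had 25.5, 33.5, 43.6 and 136.5, with a log2 fold change of -1.61 and -0.57 without PBS 2.

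Of the 42 genes of VEGF receptor signalling, 0 passed in edgeR, 20 were higher and 22 lower in ATO, 10 lay above and 7 below (19.7% and 20.2% of all genes), and the median was -0.05, or 0.20 without PBS 2. Hspb1, the small heat shock protein phosphorylated downstream of p38, had 144.9, 72.6, 15.0 and 32.7 TMM-normalised FPKM. Its log2 fold change was 2.19 (adjusted p 0.570 by edgeR, SE 0.62). The skeletal muscle markers, summed, had the same order of sarcomas. The part of muscle in the level of Hspb1 was not tested. Mapkapk3, a kinase activated by p38, had a log2 fold change of 1.74, Akt2 of 1.63 and the kinase gene Src of -1.25, which was -0.65 without PBS 1. Nos3, endothelial nitric oxide synthase, overlapped between the groups but had 5.09, 11.1, 5.37 and 157.6, with PBS 2 at 14.3 times the next sarcoma. Nos3 was singled out after its values were seen.

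The 18 genes that process or modulate VEGF signals were evenly split, with 9 higher and 9 lower. In edgeR 0 passed, 5 lay above and 3 below (19.7% and 20.2% of all genes), and the median was -0.05, or 0.39 without PBS 2. Ccn2, a matricellular protein that binds VEGF-A, had 45.8, 104.6, 7.81 and 29.1 TMM-normalised FPKM, a log2 fold change of 2.03 (adjusted p 0.596 by edgeR, SE 0.83). Thbs1, the angiogenesis inhibitor thrombospondin-1, had a log2 fold change of 0.94, the integrin gene Itgav of -1.13 and the endocytic adaptor gene Epn2 of -0.76. Without PBS 1, Thbs1 was at 0.48 and Itgav at -0.74, and without PBS 2, Ccn2 was at 3.26, Thbs1 at 1.62 and Epn2 at -0.32. Ccn2 was at 1.33 without ATO 2.

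Among 26 other genes of vessel growth, 0 passed in edgeR, 8 were higher and 18 lower in ATO, 2 lay above and 6 below (19.7% and 20.2% of all genes), and the median was -0.72. On the deposited FPKM, Dll4, Notch1 and Notch4 also lay below and Pdgfd overlapped (12.8% of all genes above, 29.6% below). Without PBS 2 the median was -0.04, and 16 of the 26 were highest in PBS 2 (23.7% of all genes). Apln, which encodes the ligand apelin, had 0.278, 6.90, 13.9 and 50.4 TMM-normalised FPKM, and its receptor gene Aplnr, the most abundant of the list in ATO 2 and PBS 2, had 5.55, 33.2, 19.5 and 321.6. The log2 fold changes were -3.17 for Apln, -2.11 for the venous ephrin receptor gene Ephb4 and -1.71 for Nrarp, a Notch target. They were -1.96, -0.69 and -0.78 without PBS 2, and that of Apln was -6.83 without ATO 2. Pdgfd, a ligand of the PDGF receptor on mural cells, had 48.6, 8.81, 3.07 and 6.99 and a log2 fold change of 2.51, which was 0.79 without ATO 1. Its groups overlapped on the deposited FPKM. Aplnr was singled out after its values were seen.

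Hypoxia induces Vegfa through HIF, and 15 hypoxia genes were examined beside it. In edgeR 0 passed, 5 were higher and 10 lower in ATO, 1 lay above and 3 below (19.7% and 20.2% of all genes), and the median was -0.53, or 0.53 without PBS 2. On the deposited FPKM, Hif1a and Vhl also lay below (12.8% of all genes above, 29.6% below). Bnip3, a mitophagy receptor gene, had 147.0, 113.0, 22.3 and 55.4 TMM-normalised FPKM and a log2 fold change of 1.74 (adjusted p 0.570 by edgeR, SE 0.61). Ndrg1 had 14.9, 14.4, 17.4 and 88.9, a log2 fold change of -1.86 that was -0.25 without PBS 2. Car9, carbonic anhydrase 9, and P4ha1, a collagen prolyl hydroxylase subunit, had log2 fold changes of -1.03 and -0.70. That of Car9 was -0.34 without PBS 2, and that of P4ha1 was -0.13 without ATO 1 and -1.70 without ATO 2. The direction among hypoxia genes was thus mixed, and Vegfa itself overlapped. At an unadjusted p under 0.05, edgeR gave 3 genes of VEGF receptor signalling and 1 gene of each of the other 4 lists above (modulators, vessel growth, semaphorins with plexins, hypoxia), and in DESeq2 1 gene of these 5 lists, Sema3a, passed the adjusted threshold. Over all genes tested, the shares were 8.51% at the unadjusted p and 4.17% in DESeq2.

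The genes whose pattern over the 4 sarcomas was nearest to that of 4 members were sought among 10864 genes, by Euclidean distance between centred log2(CPM + 1) profiles. Nearest to Flt1 were Calcrl (distance 0.149), Ankrd37 (0.170) and Tie1 (0.182), and nearest to Kdr were H2-M9 (0.142), Gm13889 (0.221) and Mmrn2 (0.263). Tie1 belongs to the endothelial markers, Calcrl to the list of vessel growth and Ankrd37 to the hypoxia list. H2-M9, Gm13889 and Mmrn2 are in none of the gene lists. Nearest to Vegfa were Churc1 (0.0908), BC031181 (0.104) and Yif1a (0.115). Nearest to Pgf were Ttc9 (0.556), Gm19951 (0.767) and F2rl3 (0.821), at larger distances than for the other 3 genes. Ttc9 had 2.22, 1.52, 1.63 and 37.2 TMM-normalised FPKM.

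Flt1 and Kdr moved together over the sarcomas, and the sequences upstream of their starts are shown for that reason, a choice made after the values were seen. All 10 members matched a RefSeq promoter entry (GRCm38.p6), and 5 motifs were searched on both strands (CANNTG, which reads the same on both, once) in the 250 bases upstream of the start. GGAA, the core of sites of ETS factors, occurred in 93.4% of 32851 promoter windows of this length. CCGGAA, a longer motif that holds the one above, occurred in 12.0% of the windows. TATAAA occurred in 12.4%. ACGTG, the core of HIF sites, occurred in 16.6%. CANNTG occurred in 66.2%. In Flt1 there were 4 matches of GGAA and 1 of TATAAA, and the other 3 motifs had no match. In Kdr there were 4 matches of GGAA, 1 of which lay in the longer ETS motif, and 1 of CANNTG. The median number of GGAA over all windows was 3, so that the 4 in each receptor are not particular to them. Capitals mark GGAA and TATAAA on either strand, the sequences read 5′ to 3′ on the minus strand at chr5:147726012-147726261 and chr5:75978459-75978705, and the Kdr window stops where the annotated gene begins.
Flt1: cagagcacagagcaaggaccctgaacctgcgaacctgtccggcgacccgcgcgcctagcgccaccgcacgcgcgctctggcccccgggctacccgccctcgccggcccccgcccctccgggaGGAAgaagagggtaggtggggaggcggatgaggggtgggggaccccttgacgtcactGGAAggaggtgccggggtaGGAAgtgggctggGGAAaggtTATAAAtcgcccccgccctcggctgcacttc
Kdr: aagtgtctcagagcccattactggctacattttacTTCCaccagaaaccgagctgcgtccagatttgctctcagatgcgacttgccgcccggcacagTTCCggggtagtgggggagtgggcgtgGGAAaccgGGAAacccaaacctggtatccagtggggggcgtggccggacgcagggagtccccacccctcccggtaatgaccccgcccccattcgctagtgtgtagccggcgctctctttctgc

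ACGTG was found in 1 of the 2 Vegfa windows and in no window of the other members. The windows of Vegfc and Vegfd differed in base composition, with 71.6% G and C and 30 CpG for Vegfc, and 42.4% and 2 CpG for Vegfd. Windows follow the starts of the RefSeq entries, and that of Vegfd (chrX:164373272-164373521) lies partly inside the gene as annotated. The windows of Pgf, Flt4, Nrp1 and Nrp2 and the Vegfa window with ACGTG also lie partly or wholly inside their genes. The median over all windows was 52.4% and 6 CpG. A match describes the letters of the window only.

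The remaining marker lists describe what else the sarcomas held. The 8 mesenchymal markers summed to 4057, 1569, 4823 and 1443 TMM-normalised FPKM, led by Col1a1 in ATO 1 and PBS 1, Col3a1 in ATO 2 and Vim in PBS 2, and none had a count of 0 in any sarcoma. Vim, which encodes vimentin, had a log2 fold change of -1.46, or -0.95 without ATO 1 and -2.28 without ATO 2. Epithelial markers summed to 5.51, 24.6, 0.960 and 7.01, led by Krt18 in ATO 1, Krt8 in ATO 2 and PBS 2, and Epcam in PBS 1. Krt8, Krt5 and Krt14 had a count of 0 in PBS 1 (Krt5 also in ATO 1). Krt18 had a log2 fold change of 1.92, or 1.04 without PBS 1 and 4.55 without PBS 2. The 8 leukocyte markers summed to 825.2, 6706, 1637 and 790.7, highest in ATO 2 and led in each sarcoma by the myeloid gene Lyz2. Csf1r, a macrophage receptor gene, had a log2 fold change of 0.59, or 0.11 without PBS 2 and 1.32 without PBS 1, and its groups overlapped on the deposited FPKM. The 6 osteoblast markers summed to 2295, 1066, 528.0 and 99.8, led in each sarcoma by Spp1, and all 6 were highest in ATO 1 (23.9% of all genes). Ibsp, a bone matrix gene, had counts of 10911, 9, 11 and 13, so that its log2 fold change of 8.91 was 0.21 without ATO 1, and its groups overlapped on the deposited FPKM. That of Alpl was 4.76, or 1.71 without ATO 1. That of Spp1 was 2.24, or 1.48 without PBS 2 and 3.92 without PBS 1. Sp7 had a count of 0 in ATO 2 and PBS 1. The part of these tissues in the levels of the VEGF family was not tested.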

How the data were processed

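RNA-seq of 4 sarcomas from W/+ mice, 2 labelled ATO and 2 labelled PBS, was analysed. The authors removed adapters with cutadapt 1.9.1, checked reads with FastQC 0.10.1, aligned them to the mouse genome with HISAT2 2.0.1 and deposited raw read counts per gene made with HTSeq. The authors also deposited FPKM, and in 100% of genes it equalled the count divided by exonic gene size and total count to within 0.0051. The exonic gene size deposited by the authors covers all exons of a gene, so that the level of short splice forms is understated. The strand setting is not given in the sources used here. The labels name TRIzol and a SMARTER kit, whereas the methods of the study name a spin column and TruSeq. Of 52073 genes shared with GENCODE M21 (GRCm38), 1435 (2.76%) have the same position in the table, so positions were taken from GENCODE by identifier.

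For the comparison of ATO with PBS, edgeR 4.0.16 (R 4.3.3) was run on the counts with filterByExpr, TMM factors and the quasi-likelihood F-test, at a Benjamini-Hochberg threshold of 0.05. TMM factors were 1.01 and 0.821 for ATO 1 and ATO 2, and 1.09 and 1.11 for PBS 1 and PBS 2. The code was tested on simulated data. As alternatives, DESeq2 1.42.0 was run, edgeR was given the size factors of DESeq2, the filter was dropped, the replicate number was added as a block and every sarcoma was omitted in turn. In limma 3.58.1, log2(FPKM + 1) and log2(FPKM + 0.1) were fitted where the mean FPKM reached 1, and the former also without this minimum. The floor of 3 counts for an undetected gene was 0.151 to 0.240 CPM and covers counting error only.

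The members and gene lists were chosen with earlier results of these data known. Named genes were all members and, from each list, up to 4 genes with groups that did not overlap and a mean of at least 1 TMM-normalised FPKM, by largest absolute fold change, plus genes that were the most abundant of their marker list in at least 1 sarcoma, markers at 0 and the 3 genes nearest in pattern to Vegfa, Pgf, Flt1 and Kdr. Adipocyte genes are given by level, since their counts in PBS were at or near 0. Figures were drawn in Python 3.11.15 with matplotlib 3.10.9.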

Additional observations from a re-analysis of the deposited data

How the results depend on the processing

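In edgeR 0 genes passed the adjusted threshold, beside 1463 at an unadjusted p under 0.05. DESeq2 passed 716 genes and edgeR without a filter 541, while DESeq2 size factors, the limma fits on FPKM and each sarcoma left out passed 0. Of the members, DESeq2 passed 1 (Vegfd), and all other alternatives passed 0. Of the gene lists together, DESeq2 passed 16 genes and edgeR without a filter 15. For these counts the cause was not tested. The number of members higher in ATO was between 3 (without ATO 2) and 7 (without PBS 2) when a sarcoma was omitted. With the replicate number as a replicate block 0 genes passed (1165 at an unadjusted p under 0.05), and the median of the modulators turned from -0.05 to 0.049. It moved the medians of the members (-0.73 to -0.45), endothelial (-1.51 to -0.95), lymphatic endothelial (-0.98 to -0.024), mesenchymal (-0.97 to -0.54), semaphorin and plexin (-0.15 to -0.10) and hypoxia genes (-0.53 to -0.21), and the log2 fold changes of Flt1 (-1.36 to -0.80), Flt4 (-2.04 to -1.15) and Ibsp (8.91 to 5.29), by over 1.5 times. The deviations of same-numbered sarcomas had a correlation of 9.08e-05, and the samples share only a number.

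With each sarcoma left out in turn, a fit in which the lone sarcoma of a group is assumed to vary like the others, log2 fold changes ranged from -0.22 to 1.04 for Vegfa, 0.36 to 2.53 for Vegfb, 0.17 to 0.78 for Nrp2, -2.19 to 0.81 for Flt1, -2.71 to 0.64 for Kdr and -2.92 to 0.62 for Flt4. Medians of lists ranged from -1.14 to 0.51 (the 10 members), -2.31 to 0.49 (endothelial), -3.18 to 2.48 (lymphatic endothelial), -1.13 to 0.20 (pericyte), -0.27 to 1.28 (leukocyte), -1.59 to 0.75 (mesenchymal), -0.59 to 3.46 (epithelial), 0.21 to 6.31 (osteoblast), 4.24 to 10.9 (skeletal muscle), -0.091 to 0.20 (VEGF signalling), -0.34 to 0.39 (modulators), -1.26 to -0.04 (vessel growth), -0.36 to 0.064 (semaphorins and plexins) and -0.61 to 0.53 (hypoxia). The median of all genes was -0.02 in edgeR and -0.23 in limma on log2(FPKM + 1), so that limma values are read against that shift. For named genes, 23 values passed the threshold under an alternative but not in edgeR, all in DESeq2 or without a filter. Depth was not limiting for the members, whose lowest count was 71, but it was for Adamts3.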
